A study of Mus musculus with 6 samples.

Results

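The Myc, Max and Mxd network is a family of DNA-binding proteins that pair with each other through a basic helix-loop-helix leucine zipper. Its 10 members here were Myc, Mycn, Max, Mxd1, Mxd3, Mxd4, Mxi1, Mnt, Mlx and Mga. They were taken by gene symbol, from a list chosen with earlier results of these data known, and all 10 were measured among 18193 genes. Each was represented by its brightest probe set, a group of short probes on the array that targets 1 transcript region. The 10 genes had 26 probe sets in all, of 45037 tested.

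RNA came from LKS+ cells, lineage-negative mouse marrow cells sorted for high c-Kit together with Sca-1, which include the blood stem cells and multipotent progenitors. There were 3 arrays from Apcmin mice and 3 from wild-type (WT) mice. Apcmin mice carry the Min allele, a premature stop codon in Apc, whose protein helps to mark beta-catenin for degradation. Apcmin is a germline allele and not a deletion limited to blood cells, so the surrounding tissue carries it too. Nothing used here states the zygosity, age, sex or strain of the mice.

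In the textbook scheme, Myc or Mycn pairs with Max, and the pair binds the E-box CACGTG and raises transcription of genes for growth and cell division. Mxd1, Mxd3, Mxd4, Mxi1 and Mnt compete for Max and bring in Sin3 and histone deacetylases, which lowers transcription from the same sites. In blood stem cells Myc is known for tipping the balance between self-renewal and differentiation, and in the intestine Myc is a well-known target of beta-catenin. The comparison of Apcmin with WT therefore bears on whether the transcripts of Myc and its partners differ when Apc is mutated.

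Of the members, 4 carried the E-box in the promoter listed for them, and the matches are shown because this is the network's own binding site. For 9 members, all but Myc, 11 promoters were matched by symbol in a RefSeq table of the build GRCm38.p6. Each ran from 250 bases before to 50 bases after a transcript start. Each line gives the 12 bases on either side of the match on the gene's own strand, 5′ to 3′, with the E-box in capitals.
Mxd4 (chr5:34187912-34187941, minus strand): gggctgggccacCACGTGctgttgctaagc
Mnt (chr11:74830789-74830818, plus strand): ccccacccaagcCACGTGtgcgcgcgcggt
Mlx (chr11:101087238-101087267, plus strand): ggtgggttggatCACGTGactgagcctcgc
Max (chr12:76962234-76962263, minus strand): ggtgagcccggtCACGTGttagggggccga
The E-box began 219 bases before the start in Mxd4, 123 before it in Mnt, 40 in Mlx and 3 in Max. The letters CACGTG read the same on both strands and occurred in 7.15% of all 32851 promoters of this length. That share counts promoters, whereas the 4 members above were counted by gene. CTTTGAT, a core sequence of the TCF/LEF partners of beta-catenin, was searched on both strands as well. It occurred in 3.73% of all promoters and in 0 of the 11 promoters of the 9 members. These are letter matches in a fixed window and not measured binding sites.

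No member passed the test between Apcmin and WT in limma, with p-values adjusted over all probe sets, and neither did any other probe set (0% at the threshold of 0.05). The smallest adjusted p was 0.954 both among the 10 and over all probe sets, and the smallest unadjusted p of a member was 0.117. The 95% intervals of the members reached down to 0.61-fold for Mxd4 and up to 1.63-fold for Mnt. They differed in width, and that of Max ran from 0.83-fold to 1.28-fold. With 3 arrays a group, a true difference anywhere inside a member's own interval remains possible. Before adjustment, 1714 probe sets, or 3.81%, had a p under 0.05, a number that was 5864 without WT replicate 3. The mean was higher in Apcmin for 4 members and lower for 6, with a median log2 difference of -0.02. All 10 were among the 8658 genes whose log2 intensity averaged 6 or more, where the median was 0.02 and 56.3% had the higher mean in Apcmin. Over all genes the median was -0.04 and the share 43.0%. In bulk RNA such as this, fewer cells of a type and less RNA per cell cannot be told apart.

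**Figure D1:**
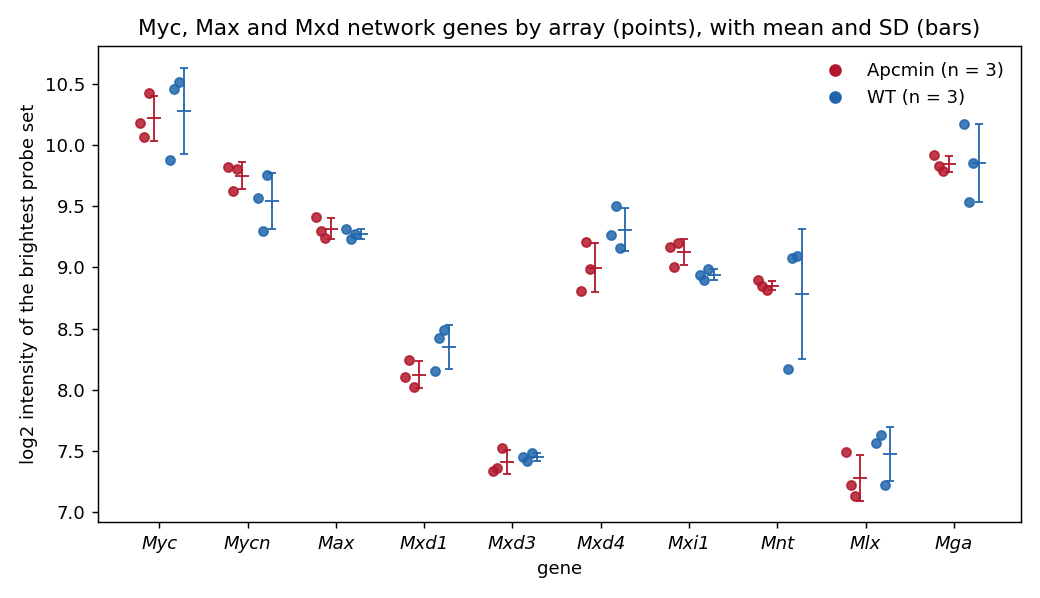
Log2 intensity of each network gene on each array, with Apcmin points left of WT points and bars for the mean and SD of 3 arrays. The 2 groups overlap for every gene except Mxi1, whose lowest Apcmin value is 8.9998 and highest WT value 8.9837. Heights of different genes come from different probes and are not comparable.

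Myc, the founding member, was bright in both genotypes. Its log2 intensity was 10.18, 10.06 and 10.42 in Apcmin, against 9.88, 10.45 and 10.51 in WT. WT replicate 1 was the lowest of all 6 arrays while the other WT arrays were the highest, so the Apcmin values lay inside the WT range. The difference of -0.06 had a standard error of 0.22 (limma, adjusted p = 0.980), and its 95% interval ran from 0.67-fold to 1.37-fold. Without WT replicate 1 the Myc difference was -0.26, and without WT replicate 3 it was 0.06. Myc had 1 probe set, so no second measurement of its transcript was at hand.

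Mycn, the paralog that overlaps with Myc in function in blood stem cells, was also bright. Its values were 9.82, 9.62 and 9.80 in Apcmin, against 9.57, 9.30 and 9.75 in WT. The Apcmin arrays were mostly above the WT arrays, but WT replicate 3 lay above Apcmin replicate 2. The difference of 0.21 (standard error 0.17, adjusted p = 0.954) corresponds to 1.16-fold, with an interval from 0.88-fold to 1.53-fold. The other Mycn probe sets differed by -0.08 at a mean of 6.34 in Apcmin and 6.42 in WT, and by -0.10 near the bottom of the range. They did not share the sign of the brightest one.

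Max, the shared partner of Myc and the Mxd proteins, was the member measured most tightly. It was at 9.41, 9.30 and 9.24 in Apcmin, against 9.32, 9.23 and 9.28 in WT. The arrays of both genotypes were interleaved within a narrow band. The difference of 0.04 (adjusted p = 0.977) had an interval from 0.83-fold to 1.28-fold. Like Myc, Max had 1 probe set.

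**Figure D2:**
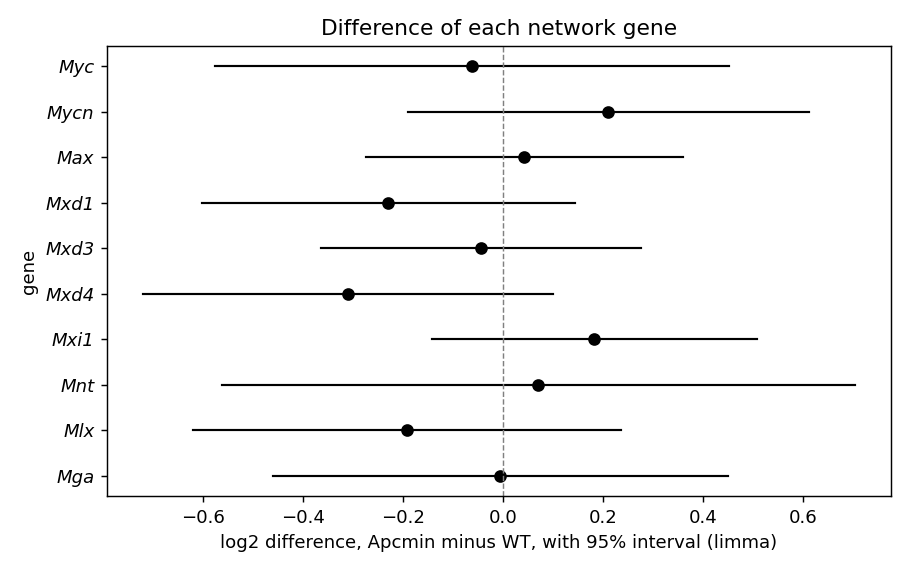
Log2 difference of each network gene, Apcmin minus WT (points), with the 95% interval from limma (lines). Every interval includes 0, from the lowest point at -0.31 for Mxd4 to the highest at 0.21 for Mycn, and Mnt has the widest interval.

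Among the Max partners that repress transcription, Mxd4 and Mxd1 had the largest negative differences, without passing the test. Mxd4, which is expressed as cells leave the cycle, was at 8.81, 9.20 and 8.98 in Apcmin, against 9.27, 9.50 and 9.16 in WT. Apcmin replicate 2 lay just above WT replicate 3, and the other Apcmin values were below all WT values. The difference of -0.31 had a standard error of 0.17 (adjusted p = 0.954), or 0.81-fold with an interval from 0.61-fold to 1.07-fold. The 3 other Mxd4 probe sets were lower in Apcmin as well, by -0.24, -0.60 and -0.27, the last at means of 2.29 in Apcmin and 2.56 in WT, near the bottom of the range. The probe set with -0.60 was at 5.45, 5.33 and 5.10 in Apcmin, against 6.49, 5.49 and 5.69 in WT, and its groups did not overlap. Probe sets of 1 gene read the same RNA and are not replicates. Among the 1093 genes with 4 probe sets, all 4 were lower in Apcmin for 12.5%.

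Mxd1, which rises when myeloid cells mature, was at 8.10, 8.24 and 8.02 in Apcmin, against 8.15, 8.42 and 8.49 in WT. Apcmin replicate 2 exceeded WT replicate 1, so the groups overlapped by that pair. The difference was -0.23 with a standard error of 0.16 (adjusted p = 0.954), and the interval ran from 0.66-fold to 1.10-fold. The other Mxd1 probe sets gave -0.53 and -0.52, the last a dim one at means of 4.20 in Apcmin and 4.72 in WT. The one with -0.53 was at 5.91, 5.93 and 6.14 in Apcmin, against 5.73, 7.44 and 6.41 in WT, and it varied widely among the WT arrays. Among the 2366 genes with 3 probe sets, all 3 were lower in Apcmin for 21.0%. When all probe sets of each gene were averaged instead of taking the brightest, the differences were -0.43 for Mxd1 and -0.35 for Mxd4. Their unadjusted p-values were then 0.0504 and 0.0457 and the adjusted p was 0.930 for both.

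**Figure D3:**
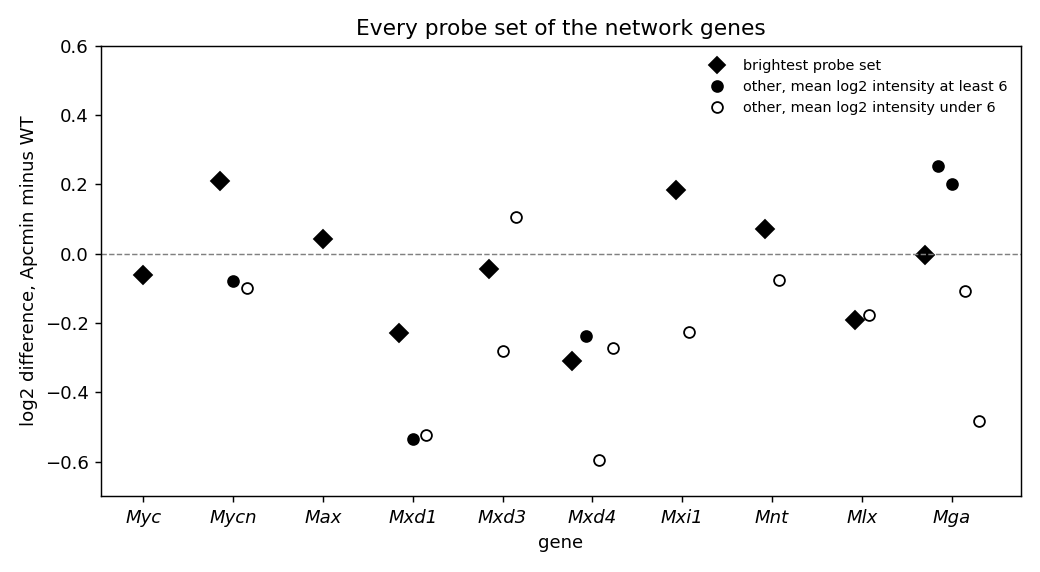
Log2 difference, Apcmin minus WT, of all 26 probe sets of the network genes. Diamonds are the brightest probe set of a gene, filled circles the others whose log2 intensity averaged 6 or more and open circles the dimmer ones. All 4 probe sets of Mxd4, all 3 of Mxd1 and both of Mlx lie below 0, while those of Mycn, Mxd3, Mxi1, Mnt and Mga lie on both sides.

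Mxi1, a further Mxd protein, was the member whose groups did not overlap, and its probe sets disagreed. The brightest was at 9.17, 8.9998 and 9.20 in Apcmin, against 8.94, 8.90 and 8.98 in WT. All Apcmin values were above all WT values, by a gap of 0.016 on the log2 scale. Such a separation occurred in 7.73% of all genes, and here in 1 of 10. The difference of 0.18 had a standard error of 0.14 (adjusted p = 0.954). The other Mxi1 probe set was at 4.88, 4.70 and 4.84 in Apcmin, against 4.91, 5.10 and 5.08 in WT. It also separated the groups, in the opposite direction, with a difference of -0.22 (adjusted p = 0.954). Mxi1 had 3 promoter entries in the RefSeq table, and which of its transcripts each probe set reads was not examined.

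Mxd3, an Mxd protein known from dividing progenitors, hardly varied in WT. It was at 7.34, 7.36 and 7.52 in Apcmin, against 7.45, 7.41 and 7.48 in WT. The WT arrays lay inside the span of the Apcmin arrays. The difference was -0.04, with an interval from 0.78-fold to 1.21-fold (adjusted p = 0.977). The dimmer Mxd3 probe sets differed by -0.28 and 0.10.

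Mnt, the broadly expressed Max partner that counterbalances Myc, was even in Apcmin and uneven in WT. It was at 8.89, 8.84 and 8.82 in Apcmin, against 8.17, 9.08 and 9.09 in WT. The Apcmin values lay between WT replicate 1 and the other WT arrays. The difference was 0.07 with the widest interval of the network, from 0.68-fold to 1.63-fold (adjusted p = 0.980). Without WT replicate 1 it was -0.23, so leaving out that array turned its sign, and without WT replicate 3 it was 0.23. The other Mnt probe set was dim and differed by -0.08.

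Mlx links Max-like pairing to the glucose-sensing Mondo proteins and can also pair with Mxd1, Mxd4 and Mnt. It was at 7.49, 7.22 and 7.13 in Apcmin, against 7.57, 7.63 and 7.22 in WT. The low WT array, replicate 3, matched Apcmin replicate 2, and the groups overlapped. The difference was -0.19 (standard error 0.18, adjusted p = 0.954). The second Mlx probe set, a dim one at means of 4.90 in Apcmin and 5.08 in WT, gave -0.18. Among the 4695 genes with 2 probe sets, both were lower in Apcmin for 34.4%.

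Mga, a large Max partner with a T-box domain that belongs to a Polycomb-type complex, had the smallest difference. It was at 9.92, 9.83 and 9.79 in Apcmin, against 10.17, 9.53 and 9.85 in WT. The WT arrays spanned a wider range that enclosed all Apcmin values. The difference was -0.005, with an interval from 0.73-fold to 1.37-fold (adjusted p = 0.999). Its 2 other probe sets with a mean of at least 6 differed by 0.25 and 0.20. The dimmest Mga probe set separated the groups, at 1.65, 1.68 and 1.84 in Apcmin, against 2.20, 2.49 and 1.93 in WT, near the bottom of the intensity range. Its difference of -0.48 had an unadjusted p of 0.0346 and an adjusted p of 0.954.

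Counted over probe sets, 19 of the 26 were lower and 7 higher in Apcmin, where 55.6% of all probe sets were lower. Of the 15 with a mean of at least 6, 9 were lower and 6 higher, where 43.2% of all such probe sets were lower. Of the 11 dimmer ones, 10 were lower, and so were more than 55.6% of all dimmer probe sets. Groups did not overlap in 4 of the 26, where 7.88% of all probe sets had that pattern, and an unadjusted p under 0.05 was reached by 1. These 4 came from 3 genes (Mxi1, Mxd4 and Mga).

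The spread among arrays was larger in WT than in Apcmin for several members. The SD was larger in WT for 6 of 10, with a median of 0.11 in Apcmin and 0.20 in WT. Over the 8658 brighter genes the larger SD was in WT for 60.4%, with medians of 0.14 in Apcmin and 0.17 in WT. Mnt showed it most plainly, with an SD of 0.04 in Apcmin and 0.53 in WT, where the 90th percentile of brighter genes in WT was 0.41. Of the 10 members, 4 had their lowest value on WT replicate 2 and 3 their highest on WT replicate 3. The median half-width of the 95% interval was 0.41 for members and 0.40 for all brighter genes.

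**Figure D4:**
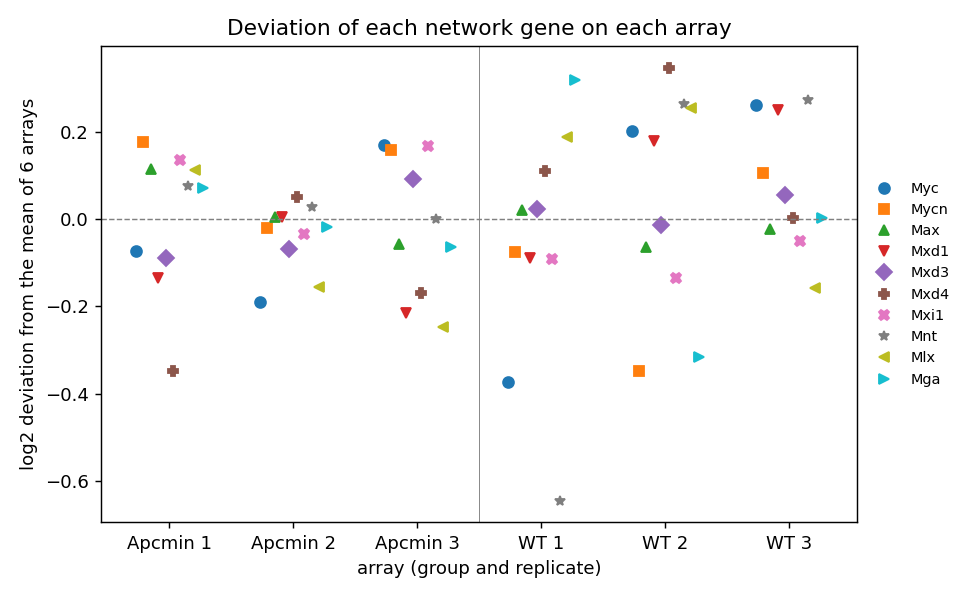
Deviation of each network gene on each array from its mean over the 6 arrays, in log2 units, with the Apcmin arrays on the left. Mnt and Myc lie far below 0 on WT 1, Mycn and Mga on WT 2 and Mxd4 on Apcmin 1, so that no array is low or high for all members.

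The other genes of the pathway were no more called than the members, with 0 past the adjusted threshold and 0 at an unadjusted p under 0.05 in each list. Of the other network genes, 3 were measured. Mlxip, a Mondo protein that pairs with Mlx, was at 8.63, 8.996 and 8.80 in Apcmin, against 8.72, 8.74 and 8.85 in WT. Mycl and Mlxipl were dim, with means under 3 in both genotypes.

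Coactivators of Myc, listed together with its partner Zbtb17, had 7 higher and 3 lower members of 10 measured, with a median difference of 0.01. Without Zbtb17, which was dim, the counts were 7 and 2 and the median was 0.02. Ruvbl1, a helicase-like subunit of chromatin complexes that Myc recruits, was at 9.83, 9.85 and 9.96 in Apcmin, against 9.69, 9.64 and 9.73 in WT. All Apcmin values were above all WT values, but the difference of 0.20 did not pass (adjusted p = 0.954). Groups did not overlap in 2 of these 10 genes, where 7.73% of all genes had that pattern, and the other 1 was lower in Apcmin. Ep400, which sits with Ruvbl1 in the Tip60 complex, differed by 0.22. The corepressors that Mxd proteins recruit had 6 higher and 1 lower of 7, with a median of 0.05 and no difference beyond 0.17 in size. Sin3a, the scaffold of that complex, was at 7.58 ± 0.13 in Apcmin and 7.41 ± 0.29 in WT (SD, n = 3 each), and Hdac1, a histone deacetylase, at 9.24 ± 0.09 in Apcmin and 9.12 ± 0.24 in WT.

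Genes for the turnover of the Myc protein had 5 higher and 4 lower of 9, with a median of 0.09. Usp28, a deubiquitinase that stabilizes Myc, was at 5.95, 5.60 and 5.65 in Apcmin, against 6.17, 6.10 and 6.002 in WT. All Apcmin values were below all WT values, and the difference of -0.36 had an unadjusted p of 0.0576 and an adjusted p of 0.954. Groups did not overlap in 2 of the 9 turnover genes (7.73% of all genes), and the other 1 was higher in Apcmin. Skp2, an F-box subunit that targets Myc and cell cycle inhibitors, was at 7.67, 7.38 and 7.91 in Apcmin, against 8.02, 7.86 and 7.92 in WT. The groups overlapped at Apcmin replicate 3, and the difference was -0.28.

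Genes that Myc is known to activate had 19 higher and 8 lower of 27 measured. Their median difference was 0.03, and 0.045 over the 26 that reached a mean of 6 in either genotype, beside 0.02 for all genes of that brighter class. Gnl3, a nucleolar GTPase, was at 10.63, 10.61 and 10.78 in Apcmin, against 10.34, 10.42 and 10.49 in WT. All Apcmin values were above all WT values, with a difference of 0.25 (unadjusted p = 0.106, adjusted p = 0.954). Groups did not overlap in 2 of the 27, both higher in Apcmin, where 7.73% of all genes had that pattern. Hspd1, a mitochondrial chaperone, differed by 0.24, and its groups overlapped. The range over the list was -0.26 to 0.38.

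Genes that Myc is known to repress had 3 higher and 5 lower of 8, with a median of -0.16. Cdkn2b and Cdh2 were near the bottom of the range, and over the other 6 the counts were 3 and 3 and the median was -0.08. Cdkn1b, the CDK inhibitor p27, was at 8.94, 9.32 and 8.98 in Apcmin, against 9.40, 9.50 and 9.24 in WT. Apcmin replicate 2 was above WT replicate 3, and the difference was -0.30 (unadjusted p = 0.116, adjusted p = 0.954). Itgb1, the beta1 integrin chain, differed by -0.17 with a wide WT range, from 8.02 to 8.95.

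**Figure D5:**
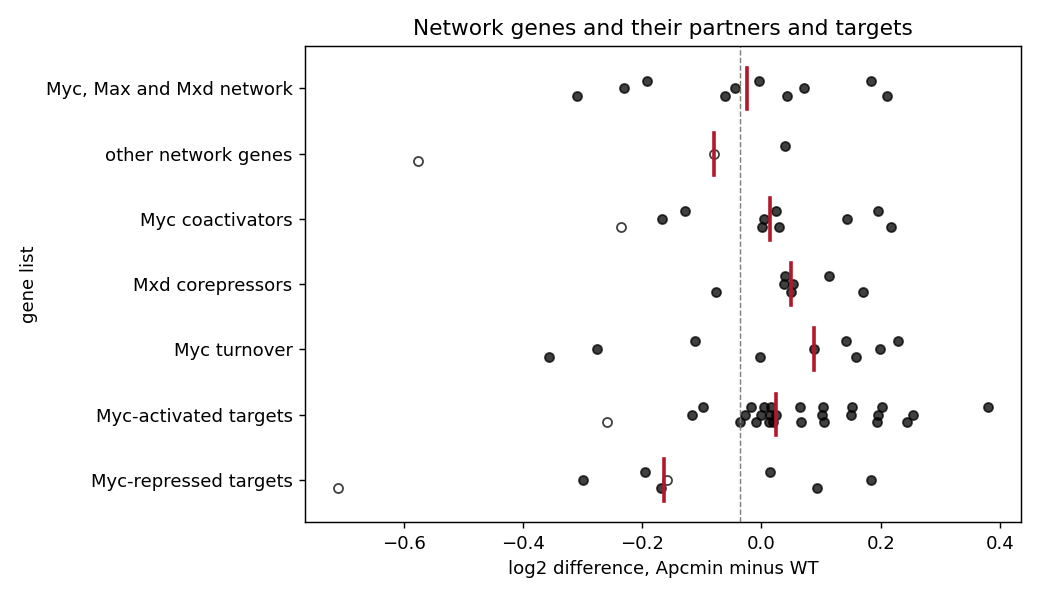
Log2 difference, Apcmin minus WT, of each measured gene in the network and in the lists of its partners and targets, with the list median as a red bar and the median of all genes, -0.04, as a dashed line. Open circles are genes with a mean under 6 in both groups, and the Myc-repressed list has the lowest median, -0.16, or -0.08 without its 2 dim genes.

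Several facts of the whole series bear on these values. The median log2 intensity per array was 4.14 to 4.17 in Apcmin and 4.12 to 4.18 in WT. Apc itself was at 7.80 ± 0.09 in Apcmin and 7.72 ± 0.09 in WT (SD, n = 3 each), and since Min changes a codon, the Apc level does not check the genotype labels. Of the LKS+ markers, 7 of 8 were measured and all 7 reached a mean of 6 in either group, Kit at 9.87 in Apcmin and 9.79 in WT among them. Of 16 measured markers of mature lineages, 14 had the lower mean in Apcmin, with a median difference of -0.17. Of all 18193 genes, 10374 were lower as well. Among the 7 markers that reached a mean of 6 in either group, 6 were lower and 1 higher, and their median was -0.14. Of the 8658 brighter genes, 3784 were lower. An unadjusted p under 0.05 was reached by 3 of the 16 markers, all lower in Apcmin, and by 566 of all 18193 genes. The groups did not overlap in 2 of the 16, where 7.73% of all genes had that pattern. Nkg7, a granule protein of cytotoxic lymphocytes, was bright, at 10.66, 10.84 and 10.61 in Apcmin, against 11.06, 11.03 and 11.05 in WT, with every Apcmin value below every WT value (difference -0.34, unadjusted p = 0.0431, adjusted p = 0.954). Cd3d differed by -0.72 (unadjusted p = 0.0296), and Hba-a1, an alpha globin gene, by -0.45 without overlap (unadjusted p = 0.0410), both at means under 4. The summed linear intensity of the 16 markers was 8845 to 9126 in Apcmin and 8663 to 11282 in WT. The T-cell genes Cd3d, Cd3e and Cd3g were near the bottom of the range in both genotypes, while the neutrophil genes S100a8 and S100a9 were bright in both. Of the other myeloid markers, Itgam and Adgre1 were near the bottom of the range in both genotypes. Ltf had means of 7.29 in Apcmin and 7.16 in WT, with WT values from 6.01 to 8.15. The part of mature cells in the differences of Mxd1 and Mxd4 was not tested.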

How the data were processed

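The values the authors deposited for 6 Affymetrix Mouse Genome 430 2.0 arrays are normalized linear intensities. The submitters' processing notes name RMA without a version or a background step. Per the labels' protocols, at least 20000 LKS+ cells per mouse were sorted at a purity above 90%, and RNA was amplified linearly. No label names the animals, so p-values measure the spread between these arrays.

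Log2 was taken with no pseudocount, and 64 control probe sets were left out of 45101. Of the rest, 34945 had exactly 1 symbol, 932 had several and 9160 had none. Through Entrez identifiers, 34741 matched a RefSeq table of GRCm38.p6 and 0 symbols changed. A gene was represented by its probe set of highest average over all 6 arrays. Apcmin was compared with WT in limma 3.58.1 (R 4.3.3, lmFit and eBayes, two-sided) with Benjamini-Hochberg adjustment over 45037 probe sets, after a check on simulated data. The simulated differences were much larger than those of the members, so the check does not speak to differences of the members' size. No detection calls came with the values, and precision is limited by having 3 arrays a group.

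The members and lists were chosen with earlier results of these data known. All members were named, and from each list the 2 genes of lowest p that averaged 6 or more (log2) in either group.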

Additional observations from a re-analysis of the deposited data

How the results depend on the processing

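The comparison was repeated under 13 alternative settings, and 0 of 130 member differences passed the adjusted threshold (lowest adjusted p 0.439, for Mxd4 without WT replicate 3). The labels do not say whether the replicate numbers pair the arrays. Deviations of same-numbered arrays from their group mean correlated at 0.05, -0.05 and -0.25, and those of differently numbered arrays at -0.16 to 0.21. With the replicate block 0 probe sets passed and 1398 had an unadjusted p under 0.05, and the members' median difference was -0.02. That unadjusted number was 2717 with array weights and 911 with a floor at log2 4, beside 1714 in the main comparison, each of 45037 probe sets. With dim probe sets left out it was 486 of 15155, so this number has a smaller total. Mycn, Mxd1, Mxd3, Mxd4 and Mlx kept their sign throughout, though Mycn fell to 0.01 when all probe sets of each gene were averaged. The replicate block, a mean-variance trend in limma, the floor and leaving out dim probe sets kept their differences unchanged. Those settings could therefore not turn a sign of these members. Leaving out 1 array moved Myc between -0.26 and 0.055, with the sign turned without WT replicate 2 (0.025), WT replicate 3 (0.055) or Apcmin replicate 2 (0.018). Max ran from -0.0052, without Apcmin replicate 1, to 0.082. Mnt ran from -0.23, without WT replicate 1, to 0.23. Mga ran from -0.16 to 0.15 and turned without WT replicate 1 (0.15), Apcmin replicate 2 (0.0017) or Apcmin replicate 3 (0.025). Array weights gave 0.08 for Mga and -0.0043 for Mnt, and averaging all probe sets of each gene gave -0.0030 for Mnt and -0.021 for Mxi1. Leaving out 1 array moved the members' median between -0.094 (without WT replicate 1) and 0.019 (without WT replicate 3), and the number of members higher in Apcmin between 3 and 6. The number of members whose groups did not overlap ran from 1 to 4, where 13.8% to 32.8% of all genes had that pattern. It was 4 without WT replicate 1 (Myc, Mxd1, Mxi1 and Mnt), where the share of all genes was 13.8%. Without WT replicate 3 it was also 4 (Mycn, Mxd4, Mxi1 and Mlx), where the share was 32.8%. Without Apcmin replicate 2 it was 4 again (Mycn, Mxd1, Mxd4 and Mxi1), where the share was 17.2%. With all probe sets of each gene averaged, 2 members were higher in Apcmin (41.6% of all genes). In that setting 2 did not overlap, Mxd1 and Mxd4 (7.73% of all genes). The cause of these shifts was not tested.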

Other observations

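The genes whose values over the 6 arrays lay nearest to those of Myc, by the root mean square difference of log2 values centred on their own mean, were Med17, Arsk and Entpd7, at 0.040, 0.068 and 0.071. The median over the other genes averaging 6 or more on the log2 scale was 0.27. Med17, a subunit of the Mediator complex, was at 8.24, 8.23 and 8.48 in Apcmin, against 8.01, 8.55 and 8.60 in WT, with the low WT replicate 1 that Myc also had. For Max the nearest were Acly, Lmo2 and Rps4x, at 0.011, 0.016 and 0.017, where the median was 0.17. These genes were picked from 8658 over 6 arrays, and the measure describes these arrays alone.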
